A study of Rattus with 26 samples.

Results

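Axon guidance genes were taken by gene symbol from the annotation of the array: every semaphorin, plexin, ephrin, Eph receptor, Slit, Robo and Unc5 symbol, and Nrp1, Nrp2, Ntn1, Ntn3, Ntn4, Dcc and Neo1. This gave 53 of 15037 named genes, and 51 of the 53 were bright enough to be tested among 11475 genes. The rule used no measured value, but earlier results of these data were known when the genes were chosen. Of 71 protein-coding RefSeq genes whose symbols meet it (assembly GRCr8), 18 had no probe set under that name in the annotation used here, among them Sema3f, Plxna1, Plxna4, Plxnd1 and Neo1. The ephrin Efna4 and the Eph receptor Epha2 were too dim, with 0 of 26 arrays above the filter value of 5.06. Unc50, a protein of the Golgi membrane, shares only the first letters of the netrin receptors. Both Unc50 and Unc5cl, which is not itself one of the netrin receptors, are counted apart.

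Guidance proteins were first known for steering growing axons, and adult neurons and glia keep making many of them. Class 3 semaphorins are secreted and bind neuropilins, which signal through plexins, whereas most other semaphorins sit in the membrane and bind plexins directly. Ephrins act on Eph receptors between touching cells, netrins act on Dcc and Unc5 receptors, and Slits act on Robo receptors. In the adult hippocampus these families are known for roles at synapses, in dendritic spines and in the placing of newborn neurons.

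The 26 arrays, rat Clariom S chips, each measured the whole right hippocampus of 1 rat, a male of the F344 strain. The 6 young saline and 5 young aspart rats were 2 months old at the start of dosing and 5 months at the end, and the 8 aged saline and 7 aged aspart rats were 18 and 21 months old. Insulin aspart, an analog of the hormone that acts quickly, or saline was given intranasally for 3 months, and all rats, controls included, had been tested in a water maze. The labels name no shared litter or cage. No cell type was isolated, so fewer cells of a type and less RNA per cell cannot be told apart. All 9 measured CA pyramidal cell markers and 5 of 7 measured dentate granule cell markers were above the filter value. So were 7 of 7 striatal neuron markers and 7 of 7 thalamic and habenular neuron markers. Passing the filter therefore does not tell hippocampus from neighbouring tissue. Values are log2 signals on the scale of the deposited table, and p-values adjusted by the Benjamini-Hochberg method come from a limma fit of all 11475 genes.

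Arrays had medians between 6.65 and 6.73, and 1 of them stood apart. Control separation, the probability that a positive control feature is brighter than a negative control feature on an array, ran from 0.815 to 0.851 on 25 arrays and reached 0.872 in aged aspart animal 6. That animal lay on average 1.21 residual standard deviations from its group mean in the guidance genes and 1.28 in all genes, against 0.961 and 0.884 at most elsewhere. Young saline animal 5 and young aspart animal 3 were rich in choroid plexus RNA, with marker means of 12.6 and 11.4 where the others had at most 8.35. Sema3c and the border tissue markers are given with and without the animals that bear on them.

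Sema3c, a secreted class 3 semaphorin, was the 1 guidance gene with an adjusted p under 0.05 for age in the limma fit. It passed under saline and averaged over both treatments, but not under aspart. Its signal in young saline rats 1 to 6 was 10.30, 10.14, 10.31, 10.25, 9.83 and 9.55. In young aspart rats 1 to 5 it was 10.03, 9.97, 10.11, 9.95 and 9.97. The young aspart rats lay close together, and the lowest young values were those of young saline animals 5 and 6. Aged saline rats had a lowest value of 8.92, a median of 9.38 and a highest of 9.65. Aged aspart rats had a lowest value of 8.31, in animal 6, a median of 9.23 and a highest of 9.77. All 7 aged aspart rats were below all 5 young aspart rats, while young saline animal 6 lay inside the range of the aged saline rats.

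Group means of Sema3c under saline were 10.06 ± 0.31 (SD, n = 6) in young and 9.32 ± 0.24 (SD, n = 8) in aged rats, and under aspart 10.01 ± 0.07 (SD, n = 5) and 9.28 ± 0.51 (SD, n = 7). With saline, Sema3c fell by 0.74 ± 0.17 (SE) with age, a signal 1.67-fold lower (95% interval of the change -1.08 to -0.40, limma adjusted p = 0.0378). With aspart the change was -0.73 ± 0.18 (interval -1.10 to -0.36), which did not pass (adjusted p = 0.15). Averaged over both treatments Sema3c fell by 0.74 ± 0.12 (interval -0.99 to -0.49, adjusted p = 0.000516). The difference between the age changes under aspart and under saline was 0.01 ± 0.25, with an interval of -0.49 to 0.51.

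These calls are to be read beside the background. Limma called 0.261% of all genes for age in saline rats (0.0261% in the lower direction), 0.0523% for age in aspart rats and 0.776% for the mean effect of age (0.166% lower), against 1, 0 and 1 of the 51 guidance genes. With an unadjusted p under 0.05 there were 3 of 51 guidance genes for age in saline rats (6.39% of all genes), 2 for age in aspart rats (5.59%) and 5 for the mean effect (9.86%), shares near the background. Of guidance genes, 27 of 51 stood above 0 for age in saline rats, with a median change of 0.01, and 47% of all genes did, with a median of -0.01. The counts were 27 of 51 for age in aspart rats (49.9% of all genes) and 28 of 51 for the mean effect (48.1%). Groups that did not overlap were found in 0 of 51 guidance genes between young and aged saline rats and in 2, Sema3c and Slit1, between young and aged aspart rats, where 0.392% of all genes showed this in either comparison.

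The saline call of Sema3c was lost when any 1 of young saline animals 1 to 4 was left out (adjusted p from 0.101 to 0.139), or any 1 of aged saline animals 1, 3, 5, 6, 7 and 8 (0.052 to 0.11), with a change between -0.84 and -0.68 in all 26 such fits. Without aged aspart animal 6 the saline change had an adjusted p of 0.00427, and the aspart change was -0.57 (adjusted p = 0.204). Without the 2 rats rich in choroid plexus RNA the saline change was -0.79 (adjusted p = 0.0484) and the aspart change -0.71 (adjusted p = 0.271). The mean fall with age passed in each of the 26 fits that left out 1 rat, at adjusted p from 0.000181 to 0.00166.

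**Figure D1:**
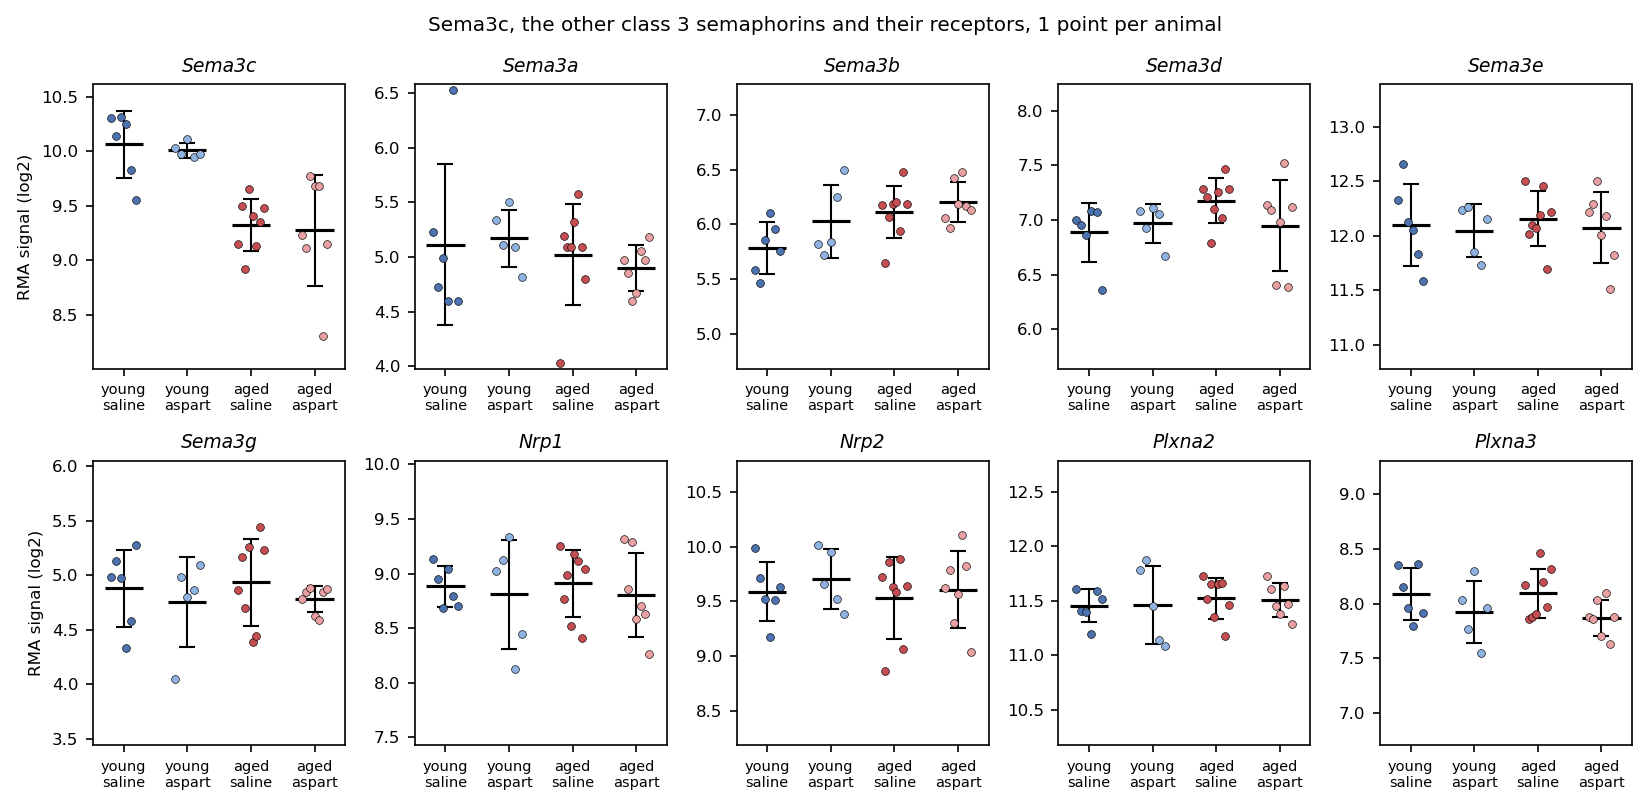
Log2 signal of Sema3c, of the 5 other class 3 semaphorins measured and of 4 receptors (vertical axes, 1 panel per gene) in the 4 groups; each point is 1 rat, the long bar is the group mean and the whiskers are 1 SD. Sema3c lies at 9.55 to 10.31 in the 11 young rats and at 8.31 to 9.77 in the 15 aged rats, and the other panels show groups that overlap.

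The relatives of Sema3c did not pass in any of the 7 comparisons. Sema3a, the class member best known for collapsing growth cones, was dim: its median was 4.86 in young saline and 5.09 in aged saline rats, and 14 of 26 arrays lay above the filter value. Its change with age under saline was -0.09 ± 0.23 (interval -0.54 to 0.37). Sema3e, which is known to bind the plexin Plxnd1 without a neuropilin, had medians of 12.09 and 12.15 in young and aged saline rats and changed by 0.06 ± 0.15 (interval -0.25 to 0.37). Sema3g, also dim, changed by 0.06 ± 0.18 (interval -0.30 to 0.42).

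Sema3b and Sema3d, 2 more secreted members, had age changes of the opposite sign to that of Sema3c under saline. Sema3b ran from 5.46 to 6.10 in young saline rats, with a median of 5.81, and from 5.65 to 6.48 in aged saline rats, with a median of 6.18. The ranges overlapped, and the change was 0.33 ± 0.15 (interval 0.03 to 0.62, limma adjusted p = 0.73). Under aspart it was 0.17 ± 0.16. Sema3d ran from 6.36 to 7.08 in young and from 6.79 to 7.47 in aged saline rats, a change of 0.29 ± 0.16 (interval -0.03 to 0.61), and under aspart the change was -0.02 ± 0.17. The saline interval of Sema3c lies below those of Sema3b, Sema3d, Sema3e and Sema3g and overlaps that of Sema3a.

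On RefSeq's GRCr8 assembly Sema3c has Sema3e, Sema3a and Sema3d on the same chromosome, with 4, 17 and 18 genes in between. Of its nearest measured neighbours, Gnai1, Phtf2 and Tmem60 on one side and Hgf, Cacna2d1 and Pclo on the other, none passed for the mean effect of age (limma adjusted p of 0.712 or more, changes from -0.16 to 0.14).

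The 4 measured receptors of class 3 semaphorins showed smaller changes with age than Sema3c. Plxna1, Plxna4, Plxnb1 and Plxnd1 had no probe set under their names and could not be compared. Nrp1 and Nrp2, the neuropilins that bind the secreted semaphorins, had age changes of 0.03 ± 0.18 (interval -0.33 to 0.38) and -0.06 ± 0.17 (interval -0.39 to 0.28) under saline. Nrp1 had a median of 8.87 in young saline and 9.01 in aged saline rats, and Nrp2 of 9.58 and 9.63. The groups overlapped nearly fully for both. Plxna2 and Plxna3, class A plexins that pass the signal on, changed by 0.07 ± 0.12 (interval -0.17 to 0.31) and 0.01 ± 0.13 (interval -0.26 to 0.28). None of the 4 passed in any comparison, and their mean changes over both treatments lay between -0.08 and 0.06. Within an animal, the gap between the signals of Sema3c and each relative or receptor moved with age by -1.07 (Sema3b) to -0.65 (Sema3a) under saline and by -0.91 (Sema3b) to -0.46 (Sema3a) under aspart. These gaps are given without a test, since Sema3c was singled out for its fall.

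Membrane semaphorins did not pass for age. Of 11 measured, 6 stood above 0 under saline and 8 under aspart, with medians of 0.02 and 0.07. Sema4d, a semaphorin of oligodendrocytes and immune cells that binds B plexins, had the widest disagreement between the treatments, with 0.19 ± 0.12 under saline and -0.19 ± 0.14 under aspart. Sema5a, which is known for effects on synapse number, had changes of 0.06 ± 0.19 and 0.31 ± 0.20. Sema7a, the member anchored by a lipid, had 0.11 ± 0.16 and 0.24 ± 0.18.

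Slit1, a secreted ligand of Robo receptors that repels axons, had the second smallest unadjusted p with age under aspart. Young aspart rats 1 to 5 had 9.38, 9.61, 9.56, 9.63 and 9.54. Aged aspart rats 1 to 7 had 10.10, 9.94, 9.70, 9.77, 9.93, 9.94 and 9.86. All aged aspart rats were above all young aspart rats, and aged aspart animal 6 lay among the others. The change was 0.35 ± 0.13 (interval 0.09 to 0.60, limma adjusted p = 0.635), and it did not pass. Under saline, where young rats ran from 9.18 to 9.90 and aged rats from 9.40 to 10.10, the change was 0.10 ± 0.12. The difference between both age changes was 0.25 ± 0.17 (unadjusted p = 0.151 in the limma fit).

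Robo1, a receptor of Slits, had a median of 9.13 in young saline and 8.88 in aged saline rats, with ranges of 8.91 to 9.28 and 8.61 to 9.15. The ranges overlapped, 7 of 8 aged saline rats were below the young saline mean, and the change was -0.28 ± 0.11 (interval -0.51 to -0.04, limma adjusted p = 0.67). Robo2 stood at 0.17, on the other side of 0. Slit2 and Slit3 stood at 0.12 and -0.10 under saline.

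Ephrins lay on the lower side with age under saline in 6 of 6 measured, with a median of -0.14, and on the higher side in 5 of 6 under aspart, with a median of 0.11, where 47% and 49.9% of all genes stood above 0. None passed, and in a fit adjusted for control separation 4 of 6 were lower under saline, with a median of -0.10. Efnb3 and Efnb2, membrane ligands that can signal back into the cell that carries them, stood lowest under saline at -0.27 ± 0.15 and -0.25. Among 8 Eph receptors, 5 were lower and 3 higher under saline, with a median of -0.04, and after the same adjustment 7 were lower, with a median of -0.15. Epha3 had the largest distance from 0, -0.42 ± 0.22 (interval -0.86 to 0.03), and Ephb6, a receptor that lacks kinase activity, had -0.35 ± 0.17 under saline and -0.29 ± 0.13 over both treatments (limma adjusted p = 0.406 for the latter). Ephb6 ran from 5.95 to 6.57 in young saline and from 5.35 to 6.40 in aged saline rats, so the groups overlapped.

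Netrins and their receptors did not pass either. Ntn3 stood at -0.31 ± 0.18 and Ntn1 at 0.15 under saline. Dcc, the receptor through which netrin attracts axons, stood at -0.18, and the Unc5 receptors, which turn attraction into repulsion, lay between -0.22 for Unc5a and 0.23 for Unc5b.

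**Figure D2:**
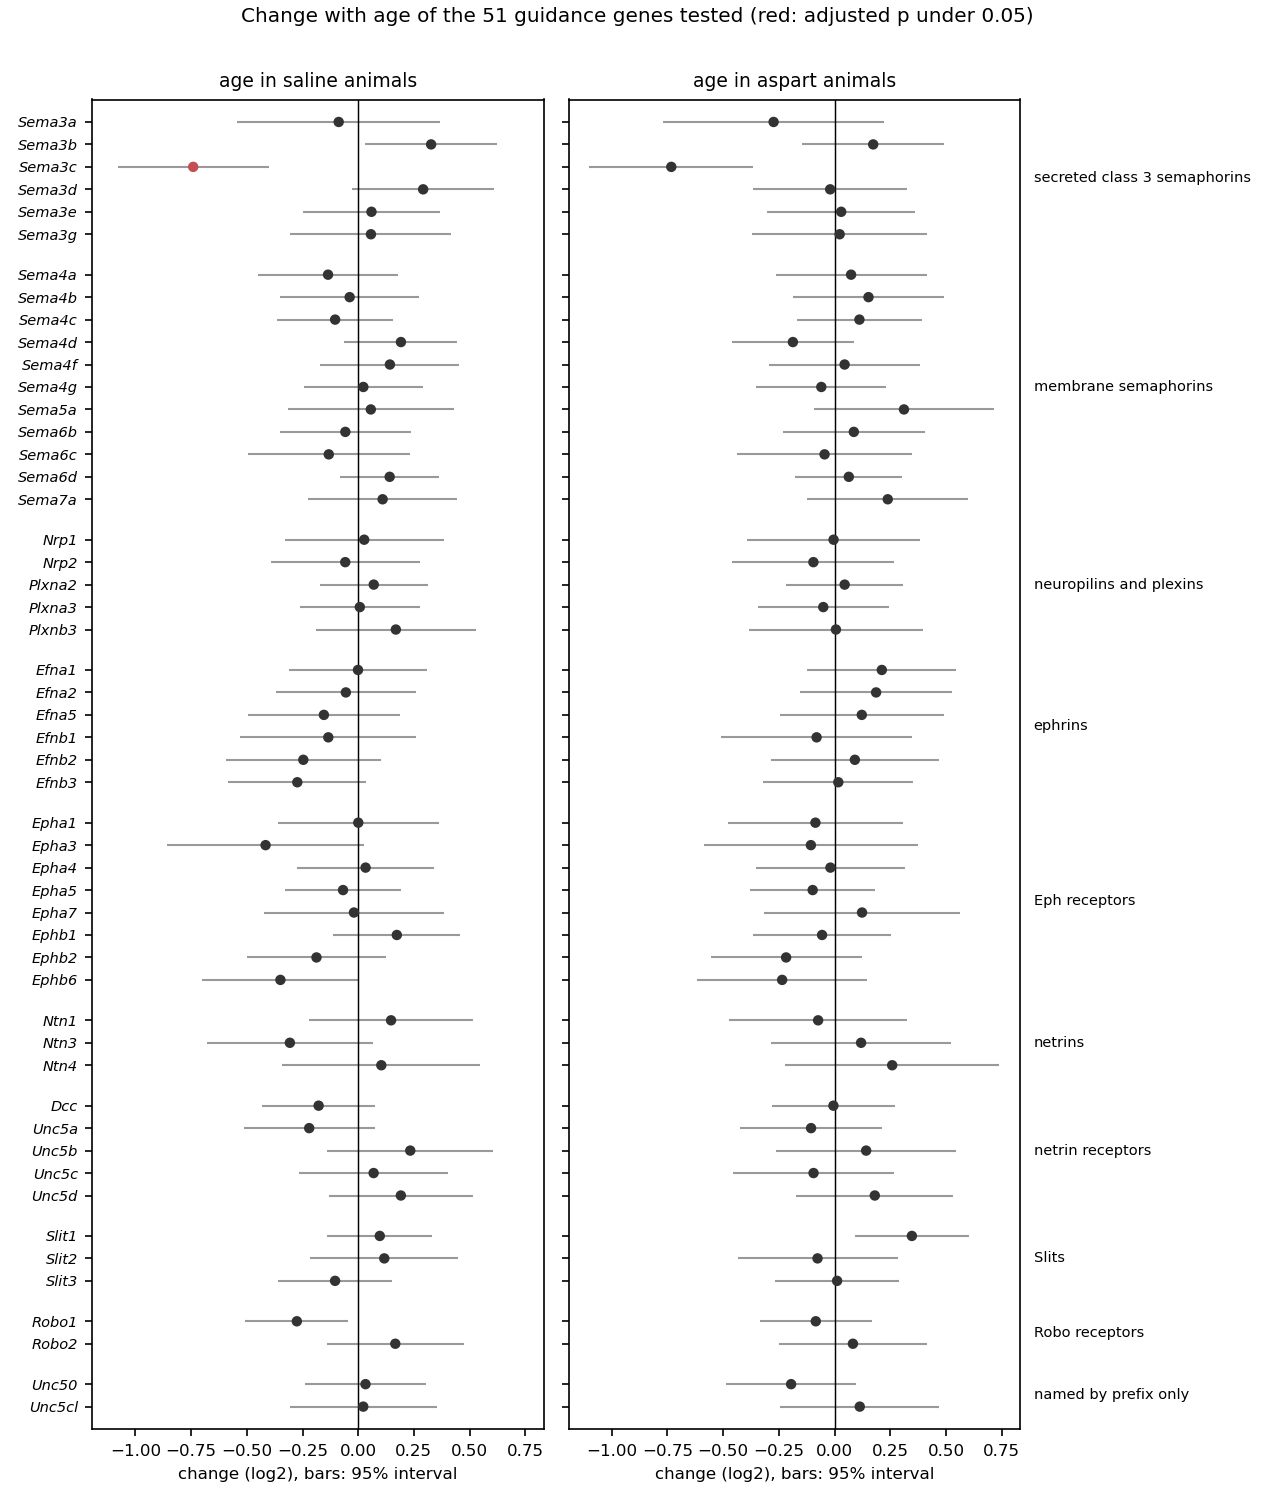
Change with age (horizontal axis, log2, aged minus young) of the 51 guidance genes tested, in saline rats on the left and aspart rats on the right; points are limma estimates, bars are 95% intervals, and genes are grouped by family. Sema3c stands at -0.74 and -0.73, and its saline estimate is the only point past the adjusted threshold.

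Aspart left no guidance gene past the threshold in aged rats, in young rats, on average or as an interaction with age, and limma called 0% of all 11475 genes in each of these 4 comparisons. Unadjusted p lay under 0.05 for 1 of 51 guidance genes in aged rats (4.69% of all genes), 1 in young rats (2.44%), 2 on average (5.19%) and 1 for the interaction (1.77%). Groups did not overlap in 0 of 51 guidance genes in either age, where 0.0174% of all genes in aged and 0.192% in young rats showed this. The difference was above 0 for 27 of 51 guidance genes in aged rats (53.3% of all genes), 23 in young rats (49.8%), 26 on average (52.1%) and 25 for the interaction (52.4%). For Sema3c, aspart minus saline was -0.05 ± 0.16 in aged rats (interval -0.37 to 0.28) and -0.06 ± 0.19 in young rats (interval -0.44 to 0.33). The interval in aged rats reaches less than the size of the fall with age on either side.

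Sema4c, a membrane semaphorin that signals through Plxnb2, had the smallest p for aspart in aged rats. Aged saline rats ran from 6.27 to 6.76, with a median of 6.63, and aged aspart rats from 6.76 to 7.21, with a median of 7.12. All 7 aged aspart rats were above the aged saline mean, and the groups met at 6.76, where aged aspart animal 7 and aged saline animal 6 overlapped. The difference was 0.42 ± 0.12 (interval 0.17 to 0.67, limma adjusted p = 0.911). In young rats it was 0.21 ± 0.14, with young saline rats between 6.53 and 6.94 and young aspart rats between 6.49 and 7.30, and on average 0.31 ± 0.09 (adjusted p = 0.861). Of 26 fits that left out 1 rat, none called Sema4c in aged rats, and the difference stayed between 0.38 and 0.47.

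Sema4d stood higher with aspart in young rats by 0.33 ± 0.14 (interval 0.05 to 0.62, limma adjusted p = 0.999) and at -0.05 ± 0.13 in aged rats. Young saline rats 1 to 6 lay between 9.07 and 9.69 with a median of 9.48, and the 5 young aspart rats between 9.45 and 9.87 with a median of 9.82. The ranges overlapped, and the lowest young aspart value was that of animal 1. The difference between both aspart changes was -0.38 ± 0.18 (unadjusted p = 0.0471, adjusted p = 1).

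Ephrins and Eph receptors lay on opposite sides with aspart in aged rats. All 6 ephrins stood above 0, with a median of 0.20, a lowest value of 0.10 for Efna5 and a highest of 0.33 for Efnb1. All 8 Eph receptors stood below 0, with a median of -0.12 and values from -0.24 for Epha4 to -0.04. None of the 14 genes passed, and 53.3% of all genes stood above 0. In young rats 5 of 6 ephrins and 7 of 8 Eph receptors stood below 0, so the ephrins did not keep their side. The aged saline rats enter both this comparison and that of age under saline. The ephrin pattern here and the one with age are therefore not independent. In a fit with control separation as covariate, 5 of 6 ephrins stood above 0 in aged rats with a median of 0.06, and 5 of 8 Eph receptors below 0 with a median of -0.06.

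Efnb1, which binds B-class Eph receptors, stood higher with aspart by 0.33 ± 0.19 in aged and 0.27 ± 0.22 in young rats, and by 0.30 ± 0.14 on average (limma adjusted p = 0.861). Its ranges were wide, from 7.00 to 7.91 in aged saline and from 6.63 to 8.27 in aged aspart rats. Plxna3 stood lower by -0.23 ± 0.13 in aged rats. Netrins stood above 0 in 3 of 3 in aged rats and in 2 of 3 in young rats.

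**Figure D3:**
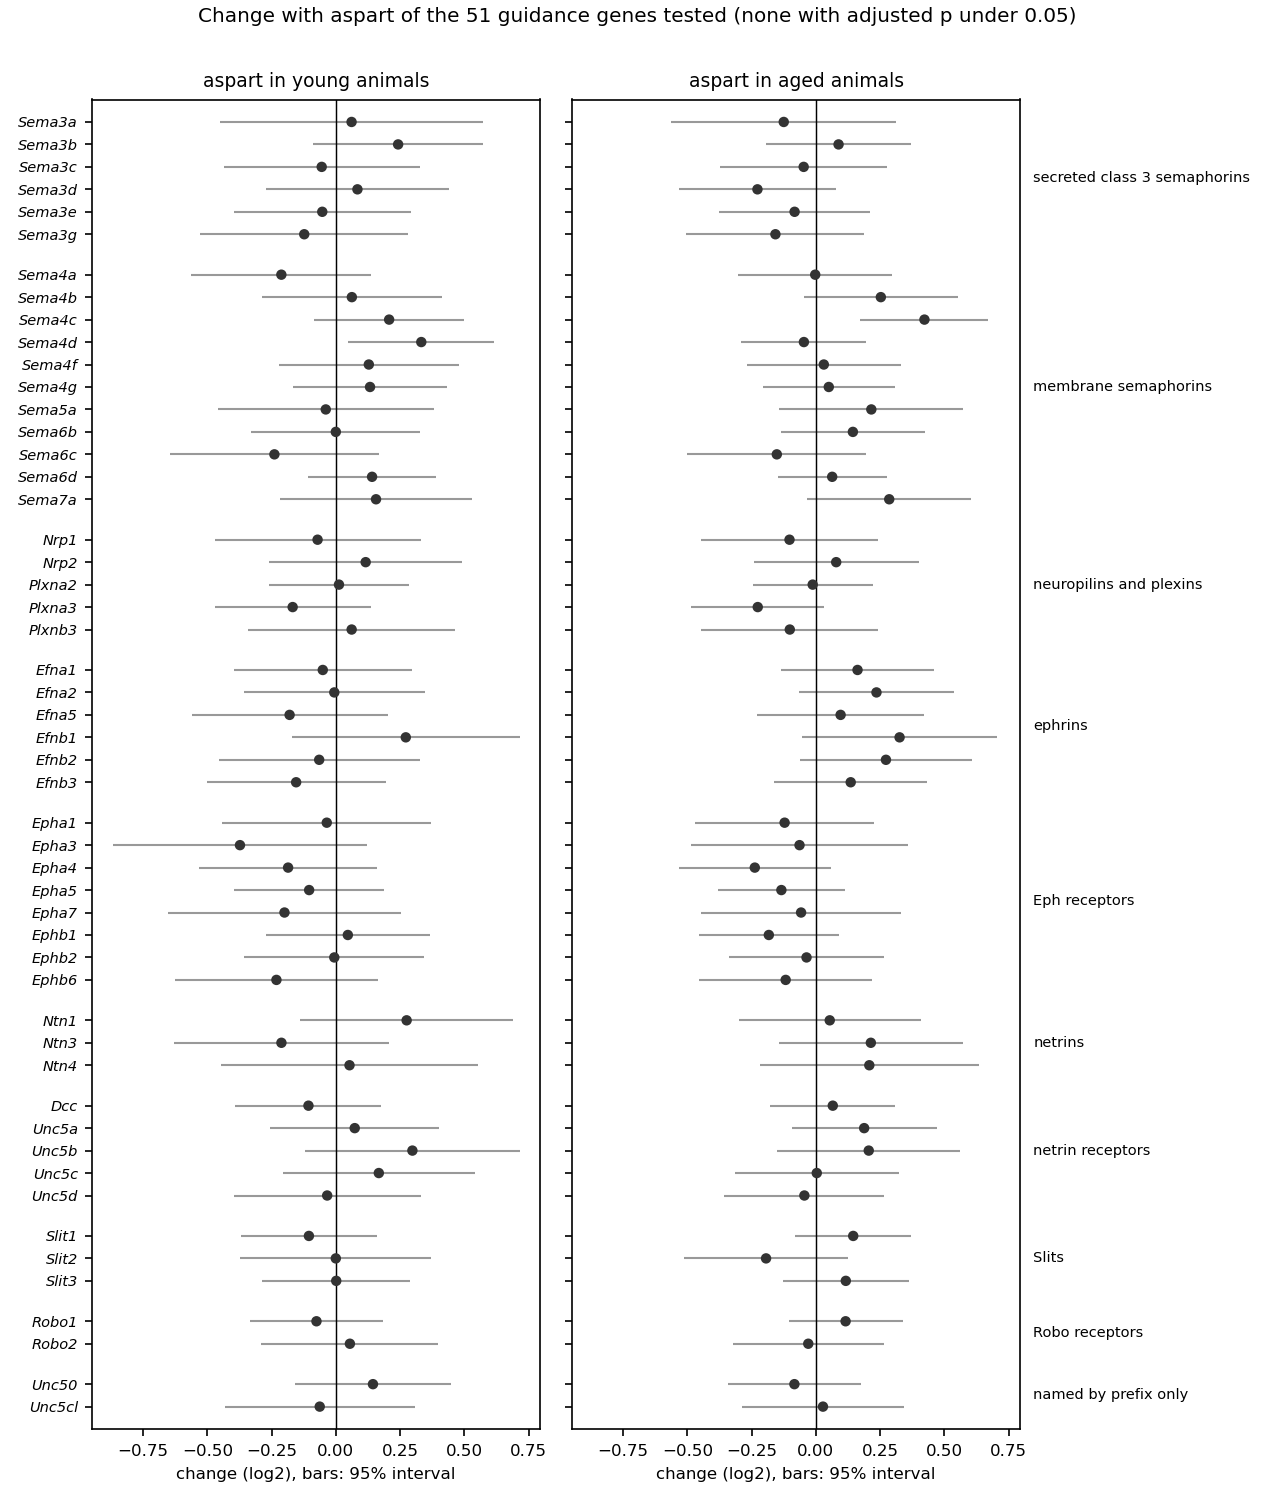
Difference between aspart and saline (horizontal axis, log2, aspart minus saline) of the 51 guidance genes, in young rats on the left and aged rats on the right. Points are limma estimates and bars are 95% intervals. Sema4c in aged rats lies highest at 0.42, and no point is past the adjusted threshold.

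Several guidance genes moved with the control separation of the array within the groups. With the groups in the model, the slope on control separation passed for 18 of 51 guidance genes (28.6% of all genes), and without aged aspart animal 6 for 12 of 51 (10.3% of all genes), of which 8 fell (4.93%) and 4 rose (5.39%). The 8 that fell as controls separated better were Epha3, Epha4, Epha7, Nrp1, Robo2, Sema3e, Sema5a and Unc5d, and the 4 that rose were Efnb2, Sema6b, Unc5a and Unc5b. Epha7, a receptor of A-class ephrins, fell by 0.29 ± 0.04 for each 0.01 of control separation (limma adjusted p = 4.97e-07) and by 0.27 ± 0.06 without animal 6 (adjusted p = 0.00159). It ran from 13.25 to 14.41 in 25 rats and was 12.68 in animal 6. Unc5b rose by 0.24 ± 0.04 for each 0.01 (0.23 ± 0.06 without that animal), with 10.13 in animal 6 and 9.95 in young aspart animal 4, which had the next highest control separation of 0.851.

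Sema3c also fell with control separation, by 0.20 ± 0.04 for each 0.01 (limma adjusted p = 0.000226), but at 0.15 ± 0.06 the slope did not pass without aged aspart animal 6 (adjusted p = 0.0961). Mean control separation under saline was 0.828 in young and 0.821 in aged rats, and under aspart 0.834 and 0.833. Adjusted for control separation, the age change of Sema3c was -0.88 ± 0.13 under saline (limma adjusted p = 6.69e-05) and -0.75 ± 0.13 under aspart (adjusted p = 0.00635), in fits that called 0.418% and 0.227% of all genes. With animal 6 left out as well, these were -0.84 (adjusted p = 0.000223) and -0.68 (adjusted p = 0.0334).

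**Figure D4:**
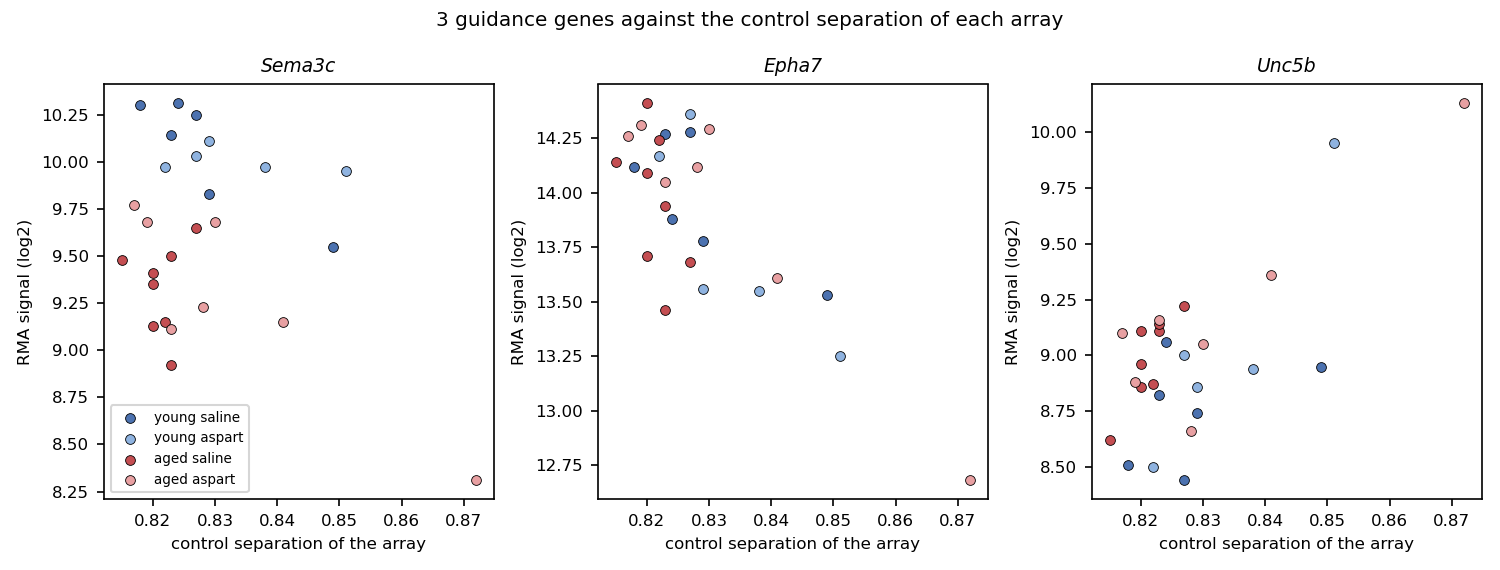
Log2 signal of Sema3c, Epha7 and Unc5b (vertical axes) against the control separation of each array (horizontal axis, a probability); each point is 1 rat, coloured by group. Aged aspart animal 6, at 0.872, has the lowest Sema3c (8.31) and Epha7 (12.68) and the highest Unc5b (10.13), and young rats lie above most aged rats in the Sema3c panel at a like control separation.

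Means of some cell type marker lists moved with age in the same rats, and those of others stayed near level. The astrocyte mean was 13.30 in young saline and 13.29 in aged saline rats, and the endothelium mean 7.64 and 7.65. Within the astrocyte list Gfap rose by 0.69 ± 0.12 under saline (limma adjusted p = 0.00276). Homeostatic microglia markers stood higher in aged saline rats in 11 of 11, with a mean of 8.30 (8.04 to 8.78) against 7.95 (7.58 to 8.17) in young saline rats, and 8.34 (8.03 to 9.02) against 8.03 (7.87 to 8.28) with aspart. Within groups Sema3c fell by 0.09 ± 0.02 for each 0.1 of that mean (limma adjusted p = 0.0053), where slopes on it passed for 12 of 51 guidance genes (16.9% of all genes), 8 of them falling (7.36%) and 4 rising (9.59%). With the microglia mean as a covariate the fall of Sema3c under saline was -0.44 ± 0.16 and no longer passed (adjusted p = 0.104), while the mean fall with age did (-0.44 ± 0.12, adjusted p = 0.0221). That fit called 352 of all 11475 genes for age in saline rats and 1095 for the mean effect of age. Within groups the microglia mean also went with control separation (Pearson 0.691 over 26 arrays). Its correlation with Sema3c was -0.649, and -0.282 after control separation was removed. The highest microglia mean was that of aged aspart animal 6, and the part of microglia in these results was not tested.

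Immature neuron markers stood lower in aged saline rats in 10 of 11, with means of 9.38 (9.27 to 9.54) against 9.61 (9.33 to 9.75) in young saline rats, and of 9.41 (9.28 to 9.54) against 9.64 (9.53 to 9.83) with aspart. Meningeal fibroblast markers stood lower in aged saline rats in 10 of 10, with a mean of 6.29 (6.19 to 6.39) against 7.04 (6.29 to 9.31) in young saline rats. The highest young value was that of animal 5, and without it the young mean was 6.58 (6.29 to 6.81), with 10 of 10 markers still lower in aged rats. Choroid plexus markers stood lower in 4 of 4, with 6.55 (5.45 to 8.35) against 7.32 (6.04 to 12.6), but without young saline animal 5 the young mean was 6.27 and 3 of 4 stood higher in aged rats. With aspart and without young aspart animal 3, 4 of 4 choroid plexus markers stood lower in aged rats (means of 5.70 against 6.50). There 9 of 10 meningeal markers stood lower (6.28 against 6.53). With the meningeal or the choroid plexus mean as a covariate Sema3c fell under saline by 0.79 or 0.75 (limma adjusted p = 0.0456 and 0.0402). Within groups the mean of the immature neuron markers and Sema3c had a Pearson correlation of -0.506 over 26 arrays (Spearman -0.534), and of -0.146 after control separation was removed. This was not particular to immature neurons. The Pearson value was -0.536 for thalamic and habenular, -0.532 for dentate granule, -0.503 for striatal, -0.455 for CA pyramidal and -0.372 for interneuron markers. After control separation was removed, these lay between -0.28 and 0.0222. The part of immature neurons in the age change was not tested. Sema3a was the 1 guidance gene whose signal rose with the meningeal mean (0.45 ± 0.10 per unit, limma adjusted p = 0.0127, 1.08% of all genes), and without the 2 rats rich in choroid plexus RNA no gene passed. RNA integrity numbers ran from 6.5 to 7.8, and their slope passed for 0 of 51 guidance genes and 0.00871% of all genes.

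Other genes of the pathways were given in 2 lists. Of 49 genes that carry guidance signals inside the cell, 45 were tested and none passed in any comparison. Dpysl3, a collapsin response protein of growing neurites, came nearest, with -0.45 ± 0.14 under saline, -0.35 ± 0.16 under aspart and -0.40 ± 0.11 over both (limma adjusted p = 0.0686), and Cdc42, a small GTPase of the cytoskeleton, had -0.15 ± 0.05 over both (adjusted p = 0.243). Of 40 co-receptors and other cues, 36 were tested and none passed. Flt1, a receptor for vascular growth factor, stood higher with age under aspart by 0.62 ± 0.16 (adjusted p = 0.205). With an unadjusted p under 0.05 for the mean effect of age there were 5 of 45 and 7 of 36 genes, against 9.86% of all genes.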

How the data were processed

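Per the submitters' processing notes and the design text, the authors summarised the arrays with Robust Multiarray Average (RMA) at the transcript level, and Partek is named among the tools, without versions. The table deposited by the authors gives log2 signals from 2.18 to 19.93. The base of the log is not written in it, and 216 clusters have means above 16, so folds are on the table's own scale. Gene names came from the platform's annotation, with 1 probe set for each guidance gene. Genes were tested where 5 or more arrays exceeded 5.06, the table's percentile 30.

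A limma model of the 4 group means was fitted to the 26 arrays (limma 3.58.1, R 4.3.3), with an intensity trend and 22 residual degrees of freedom. There were 7 two-sided contrasts, each adjusted by Benjamini-Hochberg over 11475 genes with 0.05 as the threshold. Changes carry SE, groups SD. The fit was run on simulated data with noise drawn apart for each gene and no array effect. That run cannot speak for signals that move together within an array, as they do here. Control separation used 399 positive and 1153 negative control features. Members and lists were chosen with earlier results of these data known. The rule for naming took Sema3c, its measured relatives and receptors, and members that passed or did not overlap between groups. It also took the 5 smallest p per contrast and 2 genes per other list. Not all of these are described: Sema4b and most genes of the other lists were left out. Other members named were singled out after their values were seen.

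Same-numbered animals of different groups were compared by their deviations from group means. Of 34 such pairs, 15 correlated above 0.1 (range -0.233 to 0.342, median 0.0769). Animals with different numbers were not compared, so these values cannot decide whether the numbers pair animals. The main fit treats the animals as unpaired. Alternatives were other filters, priors, weights and normalizations, covariates, the replicate block and leaving out animals. Covariate fits on control separation and microglia markers were added after seeing the data. P-values measure the spread between arrays of separate animals. Their number limits precision.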

Additional observations from a re-analysis of the deposited data

Results flagged for a closer look

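Of 25 guidance genes named, each in 4 groups, 6 of 100 groups held 1 animal far from the rest by Dixon's criterion, and chance gives about 1 in 20. Sema3a was highest in young saline animal 5 at 6.53, where the next value was 5.23, and this is an animal rich in choroid plexus RNA. Sema3d was lowest in young saline animal 6 at 6.36, below 6.86. Sema3g was lowest in young aspart animal 1 at 4.05, under the filter value, below 4.80. Sema4d was lowest in young aspart animal 1 at 9.45, below 9.77. Sema5a was lowest in aged saline animal 2 at 6.91, below 7.48, and highest in aged aspart animal 3 at 8.33, above 7.96.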

How the results depend on the processing

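For age in saline rats, 1 guidance gene passed and 0 did without the intensity trend (Sema3c adjusted p = 0.0533) or with quantile normalization (0.0532), and 0 to 1 when 1 rat was left out. With the microglia mean as a covariate the 1 gene was Unc5a, where that fit called 352 of all 11475 genes. For age in aspart rats, 0 passed and 1, Sema3c, did with control separation as a covariate, with or without aged aspart animal 6. For the mean effect of age, 1 passed and 5 did with the microglia mean as a covariate: Sema3c, Sema3e, Unc50, Unc5a and Unc5d. The microglia fit called 1095 of all 11475 genes for the mean effect of age, against 89 in the main fit. The share of 5 of 51 guidance genes is near that background. For Sema3c that mean fall kept its call in 26 fits that left out 1 rat and in 16 other settings (-0.81 to -0.44). Its aspart differences, none of which passed, turned sign. In aged rats they became 0.068 under array weights, 0.19 with a covariate for control separation and 0.19 when animal 6 was left out too (-0.13 to 0.11 when 1 rat was left out). In young rats they became 0.052 and 0.024 with control separation, with and without animal 6, and 0.015 with the microglia mean. The interaction became -0.0061 with quantile normalization, -0.0038 with the RNA integrity number, -0.0061 with the choroid plexus mean and -0.019 with the microglia mean (-0.075 to 0.17 when 1 rat was left out). The average became 0.12 and 0.11 with control separation and 0.0053 with the microglia mean (-0.10 to 0.029). The causes were not tested. With the replicate block, Sema3c changed by -0.76 under saline (adjusted p = 0.0259), -0.62 under aspart (0.232) and -0.69 on average (0.00114), and 1 guidance gene passed for age in saline rats and for the mean, as without it. Aspart and its interaction with age called 0 guidance genes in every setting tried. Precision was limited by the number of arrays: the median half-width of a guidance gene's 95% interval was 0.31 for age under saline, 0.30 for aspart in aged rats and 0.35 for aspart in young rats.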

Other observations

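The signals of Epha7 and Unc5a ran opposite across the 26 arrays after group means were removed (Pearson -0.88, Spearman -0.802), and Epha7 and Unc5d ran together (0.861 and 0.82). After control separation was removed as well these were -0.697 and 0.64. Of 1275 pairs of guidance genes, 14 had an absolute correlation above 0.7 (1.1%, against 0.672% of all gene pairs), and 2 after control separation was removed. The pair of Plxna2, a plexin, and Robo2, a Slit receptor, kept 0.731 of 0.751. All points share their array, so these values describe the arrays. The 5 genes most like Sema3c within groups were Sf3b1 (0.816), Cyp7b1, Copg2, Scyl3 and Ptgs2, and the least like was Lsm7 (-0.861), followed by Cables1, Ubl5, Arsb and Ndufv3. The correlation of Sf3b1 with Sema3c was 0.508 after control separation was removed, and with control separation itself it was -0.889.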
